A study of Mus musculus with 20 samples.

Results

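The comparison set 3 arrays from cells held for 4 h in AICAR against 3 arrays from cells held for 2 h, all of them titled as AICAR arrays of those times, and so used 6 of the 20 arrays of a time course. The cells were mouse embryonic fibroblasts immortalized with SV40, and both genes for the catalytic subunit of AMP-activated protein kinase (AMPK), the α1 and α2 forms, had been deleted in every group. AICAR was given at 1 mM in both groups, and the remaining arrays came from untreated cells at 0 h (3 arrays) and from 1, 12 and 24 h (3 arrays each) and 8 h (2 arrays) in AICAR. Total RNA was labelled with biotin as cRNA and applied to MG-430 PM array strips from Affymetrix, and all values are log2 signal, so that a difference of 1 is a 2-fold change. The labels name no wild-type cells, no untreated cells at 2 h or 4 h and no number of clones, and they leave unsaid if the replicates of a time were grown in different dishes. The step therefore shows what changed between both times in treated cells that lack AMPK, time in culture included, and p-values measure only how these arrays vary, a spread that may be technical. Of 17097 genes with a probe set of a single symbol, 12944 were tested.

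AICAR is a cell-permeable nucleoside that cells phosphorylate to ZMP, a mimic of AMP and an intermediate of purine synthesis, and it is best known as an activator of AMPK. In fibroblasts, immediate early genes such as Jun, Egr1 and Rhob respond rapidly to kinase signalling, and growth factors and stress can also induce Klf2 and Klf4. The folliculin complex, made of Flcn with Fnip1 or Fnip2, acts on the RagC GTPase at the lysosome and restrains the transcription factors TFEB and TFE3. Bone morphogenetic proteins (BMPs) and transforming growth factor β (TGF-β) signal through SMAD proteins, and Id2 and Smad6 are widely used readouts of that signal.

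The medians of the 20 arrays lay between 5.16 and 5.32, but the spread of values within an array differed inside both groups. The interquartile range was 3.14, 3.07 and 2.79 on AICAR 2h replicates 1, 2 and 3, and 3.01, 2.77 and 2.89 on AICAR 4h replicates 1, 2 and 3. AICAR 2h replicate 3 and AICAR 4h replicate 2 were thus the narrowest of their groups. For the actin controls, signal at the 3′ end less that at the 5′ end, a measure of RNA length, was 0.389, 0.521 and 0.495 at 2 h and 0.445, 0.689 and 0.544 at 4 h, and the value of AICAR 4h replicate 2 was the highest of the 20 arrays. Fibroblast markers were present, with Vim at 13.18 and 13.19, Fn1 at 11.83 and 11.79 and Col1a1 at 7.59 and 7.42 (means at 2 h and 4 h), whereas Thy1 (4.86 and 4.91) did not reach 5.08, the level that 95% of signals from non-specific controls stay under and that serves here as background. Of 11 tested fibroblast markers 0 passed the test of the step, and the mean over them was 8.33 to 8.43 on the 2 h arrays and 8.34 to 8.38 on the 4 h arrays. The macrophage, endothelial, epithelial, adipocyte and skeletal muscle markers that were tested (4, 3, 5, 3 and 6) also gave 0 calls, with Cd68, Adgre1, Pecam1 and Cdh5 below 5.08 in both groups. Other markers of these types lay above it, with Krt19 (epithelial) at 9.68 and 9.54, Epcam (epithelial) at 6.29 and 6.51, Lpl (adipocyte) at 8.35 and 8.10, Des (muscle) at 6.63 and 6.82 and Csf1r (macrophage) at 5.66 and 5.71. Prkaa1 (-0.21 ± 0.08, SE; adjusted p = 0.217) and Prkaa2 (0.09 ± 0.20; adjusted p = 0.880) did not pass, and since the sources used here do not say where their probes lie with respect to the deletions, they check nothing about the knockout.

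From 2 h to 4 h, 181 genes rose and 187 fell. Together these were 368 genes, or 2.84% of those tested, with 1.40% higher and 1.44% lower (limma over the 20 arrays, adjusted p under 0.05; 2045 genes had an unadjusted p under 0.05). The changes were small: the median size among the changed genes was 0.43, 69 genes changed at least 1.5-fold (29 up and 40 down), and 2 changed at least 2-fold. These 2 were Klf2, which rose by 1.07 ± 0.15 (SE, adjusted p = 0.00147), and Smad6, which fell by 1.05 ± 0.16 (SE, adjusted p = 0.00318). In 365 of the 368 changed genes the arrays of 2 h and 4 h did not overlap. Separate groups in a named gene therefore add little to its call, and the largest rises and falls were picked for it. Arrays were also separate in genes that did not pass, such as Ccna2 (-0.16, adjusted p = 0.228) and Snhg6 (-0.18, adjusted p = 0.157). The share of all genes tested with separate arrays is not given here, so the 365 have no background to be read against.

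The number of changed genes depended on single arrays. At 2 h, leaving out replicate 1, 2 or 3 gave 116, 91 or 382 changed genes. At 4 h, leaving out replicate 1, 2 or 3 gave 534, 100 or 139. A total of 71 genes, 41 higher and 30 lower, passed with each of the 6 arrays left out in turn. Without AICAR 2h replicate 3 and AICAR 4h replicate 2 together, 106 genes passed, 100 of them among the 368. Quantile normalization called 456 genes higher and 306 lower, a larger share of rises than the 181 and 187 here. The 6 arrays fitted alone, with 4 residual degrees of freedom in place of 13, called 5 genes: Aunip, Jun, Lonrf1 and Zbtb34 as higher and Id2 as lower. The changed genes had a common order among arrays. AICAR 4h replicate 1 was the 4 h array closest to the 2 h arrays in 118 (65.2%) of the genes that rose and in 94 (50.3%) of those that fell, and AICAR 2h replicate 3 was the 2 h array closest to the 4 h arrays in 93 (51.4%) and 125 (66.8%). The part of array spread and actin signal in these orders was not tested.

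**Figure D1:**
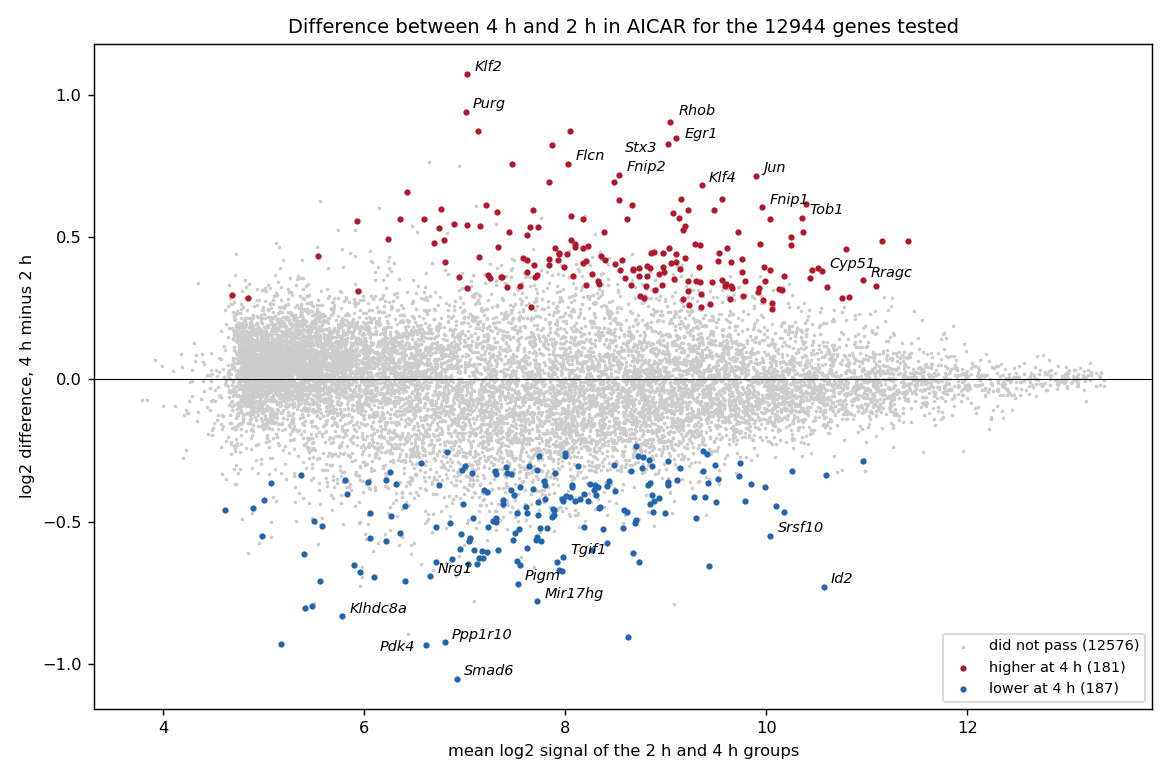
Each point is 1 of the 12944 genes, with the mean log2 signal of the 2 h and 4 h groups on the horizontal axis and the log2 difference (4 h minus 2 h) on the vertical axis. The 181 genes that rose (red) and the 187 that fell (blue) lie within 1.07 of 0 in either direction, and Klf2 and Smad6 mark the extremes.

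The Krüppel-like factors, zinc finger transcription factors, held the largest rise. Of 11 tested members 2 rose, Klf2 and Klf4, and 1 fell, Klf10, beside 1.40% higher and 1.44% lower among all genes tested. The median over these members was 0.14, against 0.0007 for all genes tested. Klf2, known for keeping endothelial cells and T cells quiescent, had log2 signals of 6.42, 6.45 and 6.59 at 2 h and 7.17, 7.86 and 7.65 at 4 h. All 3 arrays at 4 h lay above all 3 at 2 h, with replicate 1 the lowest of them. The promoter of Klf2 is shown because Klf2 had the largest rise. It lies at chr8:72318812-72319111 (GRCm38.p6, plus strand, RefSeq), runs from 250 bases before to 50 bases after the start of the gene, and holds 1 MEF2 site (capitals), the AT-rich sequence that MEF2 factors bind, at -118 to -109 from the start.

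Klf2 promoter: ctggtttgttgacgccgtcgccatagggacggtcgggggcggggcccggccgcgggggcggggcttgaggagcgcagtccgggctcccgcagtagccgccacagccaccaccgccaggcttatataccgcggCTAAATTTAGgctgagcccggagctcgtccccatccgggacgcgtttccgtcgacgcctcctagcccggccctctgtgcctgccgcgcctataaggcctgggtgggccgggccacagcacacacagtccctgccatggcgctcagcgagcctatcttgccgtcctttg

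A MEF2 site was found in 3.19% of all 32851 promoters of this length in the table, in 1.70% of those of genes tested and in 2.90% of the 138 promoters found for genes that rose. Rhob, a short-lived small GTPase, had signals of 8.63, 8.54 and 8.602 at 2 h and 9.19, 9.70 and 9.59 at 4 h, a rise of 0.90 ± 0.12 (SE; adjusted p = 0.00132). Klf4, a factor of epithelial barrier genes and of pluripotency, had signals of 8.99, 9.10 and 8.97 at 2 h and 9.58, 9.79 and 9.74 at 4 h, a rise of 0.68 ± 0.10. In both genes the groups were separate and each 2 h group was tight. Klf2, Rhob and Klf4 passed with each of the 6 arrays left out; averaging its probe sets cost Klf4 its call (0.59, adjusted p = 0.0636).

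Klf10, a TGF-β-inducible member, went from 9.06, 9.20 and 8.91 to 8.37, 8.50 and 8.38, a fall of 0.64 ± 0.12 (SE; adjusted p = 0.00899). It did not pass without AICAR 2h replicate 2. Rnd3, an atypical small GTPase, fell by 0.49. Klf3 differed by 0.40 and missed the threshold (adjusted p = 0.0624). Over the time course the step was part of different courses. Klf2 stood at 7.08 ± 0.16 (SD, n = 3) in untreated cells, was lowest at 1 h (6.15 ± 0.10), and then climbed through 6.49 ± 0.09 and 7.56 ± 0.35 in this step to 8.58 ± 0.18 at 12 h. Rhob stood at 8.92 ± 0.10 at 0 h and 10.45 ± 0.20 at 12 h, and its lowest group mean was that of 2 h.

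**Figure D2:**
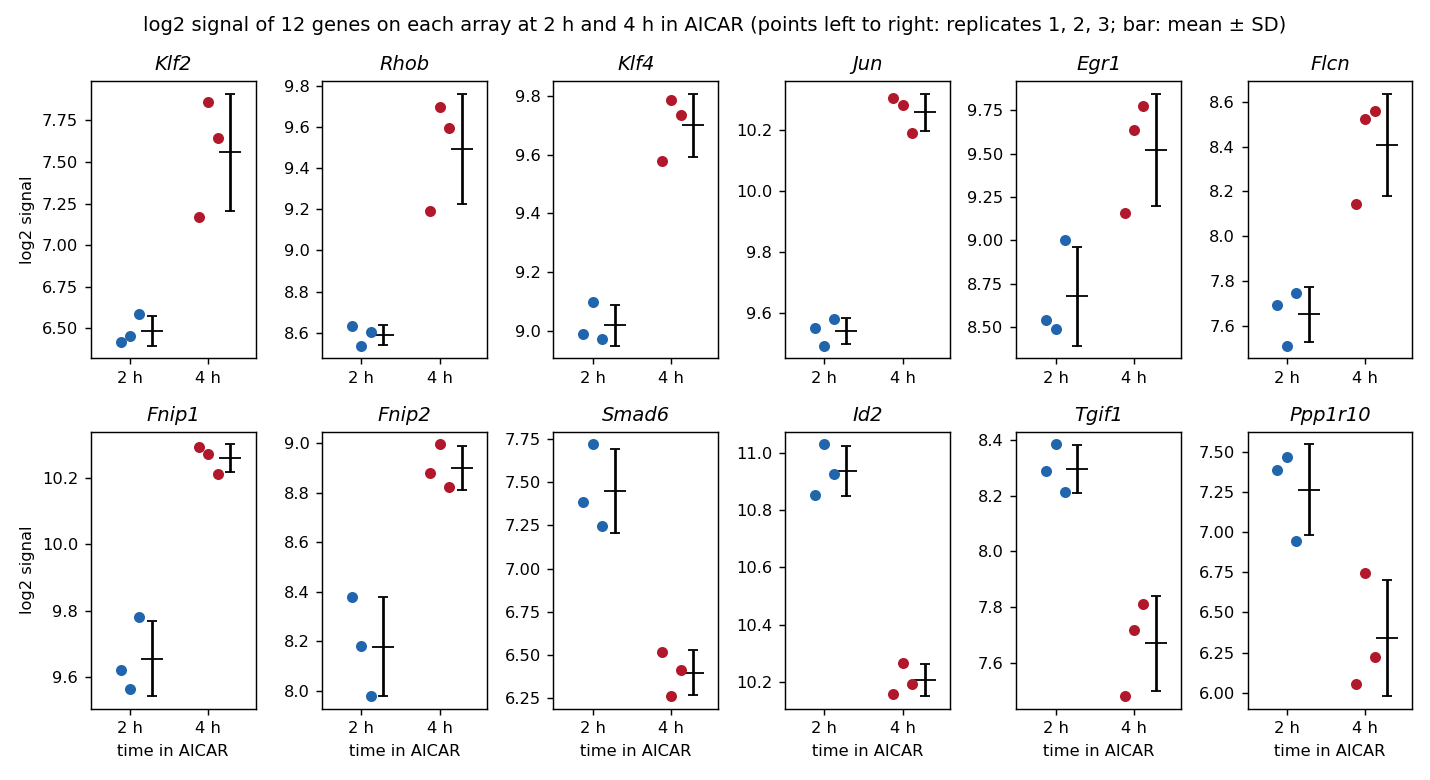
log2 signal of 12 genes on each of the 3 arrays at 2 h (blue) and at 4 h (red), with points from left to right for replicates 1 to 3 and a bar for mean ± SD; each panel has its own vertical axis. In all 12 panels the groups are separate, as in 365 of the 368 changed genes and in some genes that did not pass. AICAR 4h replicate 1 is the lowest 4 h array for Klf2, Rhob, Klf4, Egr1 and Flcn.

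Of 22 tested immediate early transcription factors 2 rose and 0 fell, beside 1.40% and 1.44% of all genes tested. The list median was 0.08. Jun, a subunit of the AP-1 factor, had signals of 9.55, 9.49 and 9.58 at 2 h and 10.30, 10.28 and 10.19 at 4 h, a rise of 0.72 ± 0.10 (SE; adjusted p = 0.00147). Its arrays were tight in both groups, and it also rose in the 6 arrays alone. Egr1, a zinc finger factor induced through ERK and SRF, had signals of 8.54, 8.49 and 9.001 at 2 h and 9.16, 9.63 and 9.78 at 4 h, a rise of 0.85 ± 0.15 (SE; adjusted p = 0.00488). Here the highest 2 h array, replicate 3, lay just below the lowest 4 h array, replicate 1. The Egr1 mean at 4 h, 9.52 ± 0.33 (SD, n = 3), was below that of untreated cells, 9.75 ± 0.07. For Jun the 4 h mean, 10.26, was above the 9.96 of untreated cells. Atf3 (0.51, adjusted p = 0.0597), Fosl2 (0.37), Myc (0.31) and Fos (0.11) did not pass. Beside the same shares of all genes tested, 2 of 21 tested members of a list of ERK feedback genes rose and 0 fell. They were Dusp10, which the list includes although it is a phosphatase of JNK and p38 (0.57 ± 0.10, SE, adjusted p = 0.00481), and Errfi1, an inhibitor of the EGF receptor (0.54 ± 0.10). Dusp10 passed with each array left out, and Errfi1 lost its call when AICAR 2h replicate 1 or AICAR 4h replicate 2 was left out. Errfi1 stood at 9.74 in untreated cells and at 9.46 at 4 h, and Dusp10 at 7.45 and 8.35. Spry4 (0.53), Dusp6 (-0.23) and Hbegf (-0.49) did not pass.

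The folliculin complex and the genes around it gave 4 rises and 0 falls among 21 tested members, beside 1.40% and 1.44% of all genes tested. The list median was 0.06. Flcn, the subunit that gives the complex its name, had signals of 7.69, 7.51 and 7.75 at 2 h and 8.15, 8.52 and 8.56 at 4 h, a rise of 0.76 ± 0.11 (SE; adjusted p = 0.00239). Fnip2, a binding partner of Flcn, had signals of 8.38, 8.18 and 7.98 at 2 h and 8.88, 8.995 and 8.82 at 4 h, a rise of 0.72 ± 0.13 (SE; adjusted p = 0.00761). Fnip1, the other partner, had signals of 9.62, 9.56 and 9.78 at 2 h and 10.29, 10.27 and 10.21 at 4 h, a rise of 0.60 ± 0.07 (SE; adjusted p = 0.000443). All 3 subunits were separate between the groups and passed with each of the 6 arrays left out. Fnip1 rested on 1 of its 3 probe sets: the others, with lower signal, differed by 0.06 and 0.02, and the mean of the 3 did not pass (0.23, adjusted p = 0.820). Rragc, which encodes RagC, rose by 0.35 ± 0.07 (SE; adjusted p = 0.0111), a call that needed AICAR 2h replicate 2 and AICAR 4h replicate 2.

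Among members of the axis that did not pass, Tsc1, a brake on mTORC1, differed by 0.37 (adjusted p = 0.0544), Mitf by -0.42 (adjusted p = 0.170), Tfeb by 0.06, Tfe3 by 0.04 and Rragd, a paralog of Rragc, by 0.04. Of 31 tested autophagy and lysosome genes 0 passed, and their median was 0.01. Flcn, Fnip1 and Fnip2 had a peak at 4 h in their group means that was not kept at 8 h and 12 h. Flcn stood at 8.03 ± 0.12 (SD, n = 3) in untreated cells and 7.65 ± 0.12 at 2 h. Part of its rise to 8.41 ± 0.23 at 4 h thus brought it back to the untreated level. Its highest group mean was 8.55 ± 0.07 at 24 h. Fnip1 started from 9.36 ± 0.06 (SD, n = 3) in untreated cells, reached 10.26 ± 0.04 at 4 h, was back at 9.57 ± 0.03 (n = 2) by 8 h and stood at 10.27 ± 0.08 after 24 h. Rragc kept its 4 h level, with 11.14 ± 0.07 at 4 h and 11.19 ± 0.10 (n = 2) at 8 h.

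TFEB and its relatives bind sequences with the core CACGTG, and CREB and ATF factors bind TGACGTCA. Short windows around these letters are shown for the members that rose and hold them, chosen after their values were seen; the motif is in capitals, with 10 bases on each side, on the gene's strand (RefSeq, GRCm38.p6). The Flcn motif lies at -49 to -42, that of Fnip1 at -75 to -70 and that of Rragc at -112 to -107, counted from the start of the gene.
Flcn: atgtcagtttTGACGTCAcccctgcaga
Fnip1: agtttgctgcCACGTGatacggctcg
Rragc: tgattccgggCACGTGatagtaccac
The Fnip1 and Rragc windows share CACGTG followed by at. In the Flcn and Fnip2 promoters no CACGTG was found. Read on both strands, CACGTG was present in 13.8% of 138 promoters of genes that rose, 11.5% of 156 of genes that fell, 9.87% of those of genes tested and 7.15% of all promoters. TGACGTCA was present in 2.90%, 5.13%, 3.12% and 1.79% of the same sets. A match describes the letters and is not evidence of binding.

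The targets and regulators of BMP and TGF-β signalling gave the most falls of the gene lists. Of 18 tested members 4 fell and 0 rose, beside 1.44% lower and 1.40% higher among all genes tested. The median of the list, -0.25, was the lowest of the lists other than cell type markers. Of those, the 3 adipocyte markers tested also had -0.25. The median of the BMP and TGF-β list was -0.19 with quantile normalization and -0.27 with median centring. Smad6, an inhibitory SMAD that BMPs induce, had signals of 7.38, 7.72 and 7.25 at 2 h and 6.52, 6.26 and 6.41 at 4 h. The groups were separate by more than the range of either, and the gene passed with each of the 6 arrays left out. Its promoter is shown because Smad6 had the largest fall. It lies at chr9:64022010-64022309 (GRCm38.p6, minus strand, RefSeq), and none of the 7 motifs searched was found in it. The only SMAD motif among the 7 was GGCGCC, so other SMAD sites in this promoter were not looked for.

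Smad6 promoter: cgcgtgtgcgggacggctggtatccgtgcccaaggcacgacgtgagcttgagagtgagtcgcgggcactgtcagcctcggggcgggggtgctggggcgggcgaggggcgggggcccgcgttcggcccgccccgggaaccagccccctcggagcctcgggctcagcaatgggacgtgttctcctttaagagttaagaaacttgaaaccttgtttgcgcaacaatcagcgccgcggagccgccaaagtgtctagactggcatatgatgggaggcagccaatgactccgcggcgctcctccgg

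One of the motifs searched was GGCGCC, part of sites that SMAD1 and SMAD5 bind, which was found in 11.9% of all promoters, 20.4% of those of genes tested, 26.1% of those of genes that rose and 17.9% of those of genes that fell. The other motifs were TCACNCCAC, the sterol element that SREBP binds, the SRF CArG box and the NF-kB site; all were read on both strands. Id2, an inhibitor of basic helix-loop-helix factors, had signals of 10.85, 11.03 and 10.93 at 2 h and 10.16, 10.27 and 10.19 at 4 h, a fall of 0.73 ± 0.12 (SE; adjusted p = 0.00374). A second probe set of Id2 differed by -0.76 and passed as well. Tgif1, a co-repressor of SMADs, had signals of 8.29, 8.38 and 8.21 at 2 h and 7.48, 7.72 and 7.81 at 4 h, a fall of 0.62 ± 0.10. Fst, which encodes the activin antagonist follistatin, fell by 0.65 ± 0.13 (SE; adjusted p = 0.0121), again a call that needed AICAR 2h replicate 2 and AICAR 4h replicate 2.

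Related genes had values on the same side without passing: Id1 differed by -0.48 (adjusted p = 0.190), Id3 by -0.32, Smad7 by -0.38 (adjusted p = 0.0542), Bmp4 by -0.29 and Inhba by -0.24. Skil (0.00), Ccn2 (-0.06) and Bambi (0.10) stood close to 0. Of the 18 values in the list 6 were above 0, against 6501 of 12944 for all genes. Leaving out 1 array left 3 to 5 falls in the list, and quantile normalization called 4 members lower and 1 higher. The group means of Smad6 were 7.28 ± 0.25 (SD, n = 3) before AICAR, 7.25 ± 0.05 after the first hour and 6.57 ± 0.28 at 12 h, so that its level dropped within this step and did not return to that of 2 h. Id2 went from 10.76 ± 0.04 at 0 h to 9.84 ± 0.24 at 12 h and 8.84 ± 0.28 at 24 h. Fst went from 7.67 ± 0.08 at 0 h to 4.95 ± 0.18 at 24 h, below 5.08.

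**Figure D3:**
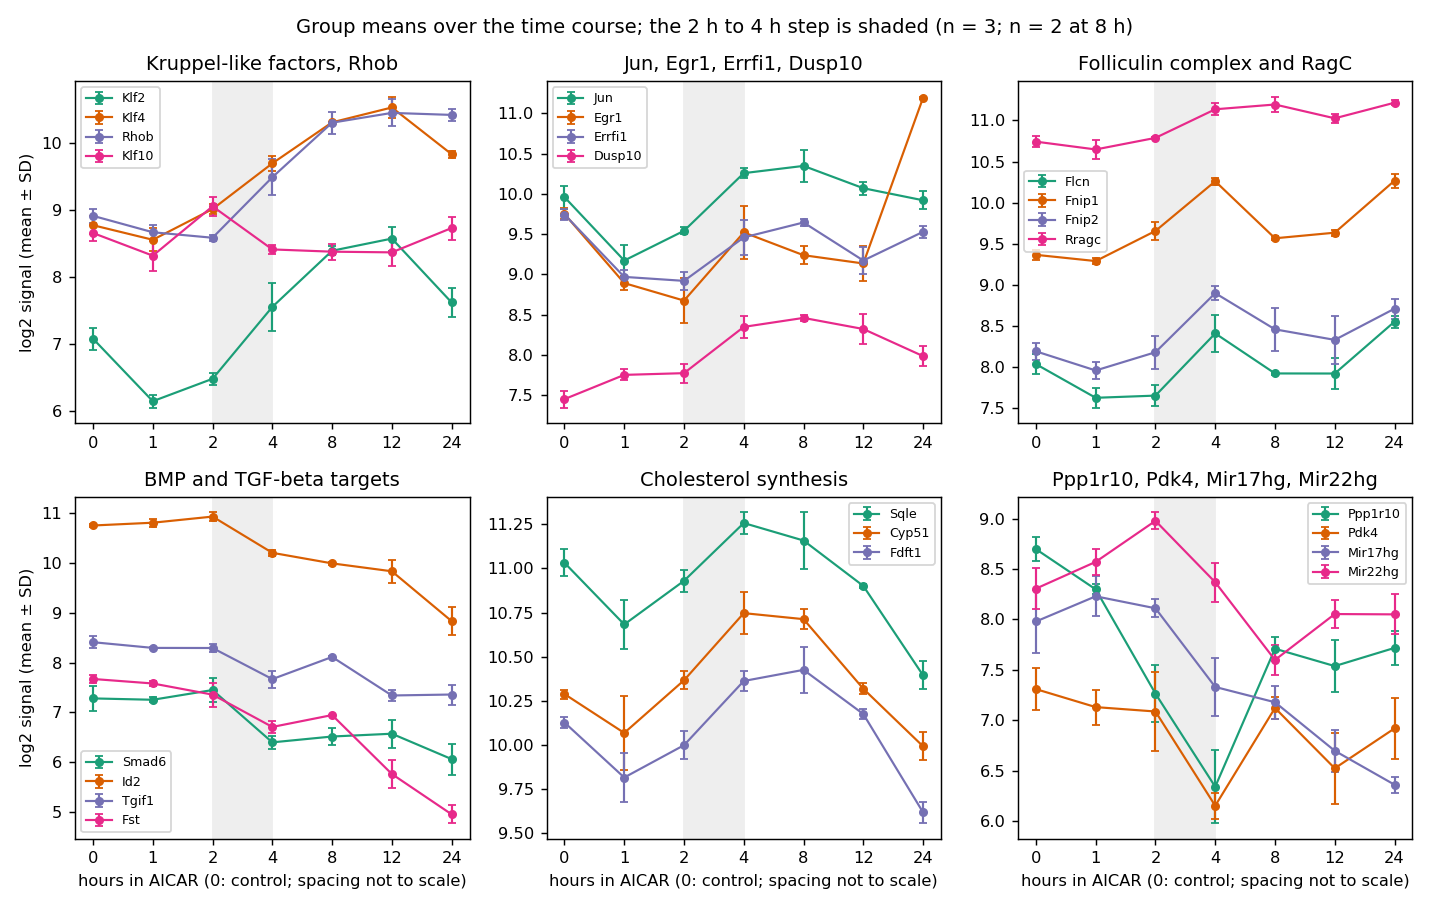
Mean log2 signal ± SD of 6 groups of genes at 0, 1, 2, 4, 8, 12 and 24 h in AICAR (n = 3 arrays, n = 2 at 8 h; times are evenly spaced on the axis), with the step from 2 h to 4 h shaded. Klf2 and Rhob continue upward to 12 h, Flcn and Fnip1 peak at 4 h and again at 24 h, Smad6 and Id2 stay below their 2 h level, and Ppp1r10 has its lowest mean, 6.34, at 4 h.

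Ppp1r10, a nuclear subunit that targets protein phosphatase 1 and takes part in transcription termination, had signals of 7.38, 7.47 and 6.94 at 2 h and 6.05, 6.75 and 6.22 at 4 h. It fell by 0.92 ± 0.16 (SE; adjusted p = 0.00618), passed with each array left out, and a second probe set fell by 1.21. Pdk4, a kinase that inhibits pyruvate dehydrogenase, had signals of 7.19, 7.42 and 6.65 at 2 h and 6.22, 6.002 and 6.23 at 4 h, a fall of 0.94 ± 0.19 (SE; adjusted p = 0.0137). AICAR 2h replicate 3 lay closest to the 4 h arrays, and Pdk4 lost its call on leaving out AICAR 2h replicate 1, AICAR 2h replicate 2 or AICAR 4h replicate 2. Both genes had their lowest group mean at 4 h: Ppp1r10 stood at 8.70 ± 0.12 (SD, n = 3) at 0 h and 7.71 ± 0.12 (n = 2) at 8 h, and Pdk4 at 7.31 ± 0.21 and 7.12 ± 0.11.

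Pigm, an enzyme of GPI anchor synthesis, went from 7.80, 8.06 and 7.80 to 7.12, 7.15 and 7.24, and Nrg1, a ligand of ErbB receptors, from 7.17, 6.77 and 7.07 to 6.41, 6.17 and 6.36. They fell by 0.72 ± 0.09 and 0.69 ± 0.11 and passed with each array left out. A second probe set of Pigm differed by 0.09, and the mean of both did not pass. Klhdc8a fell by 0.83 ± 0.15 to a 4 h mean near the background level, with 4 h arrays at 5.73, 5.10 and 5.26. Papola, the nuclear poly(A) polymerase, had a scattered 4 h group (8.67, 7.66 and 8.17) and fell by 0.90 ± 0.18. It did not pass without 3 of the arrays in turn (both AICAR 2h replicates 1 and 2 and AICAR 4h replicate 2), and its other 3 probe sets differed by -0.12 to -0.21. Peg12, Dcaf17, Znrd1as and Fahd1 fell by 0.68 to 0.80, and each did not pass in at least 4 of the 6 fits that leave out 1 array. Their 4 h means were 5.01, 5.085, 5.21 and 5.62 in that order, beside a background level of 5.08.

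The host transcript of the microRNA cluster that starts with miR-17, Mir17hg, had signals of 8.01, 8.16 and 8.17 at 2 h and 7.14, 7.19 and 7.67 at 4 h, a fall of 0.78 ± 0.16 (SE; adjusted p = 0.0119). The 4 h arrays lay below the 2 h arrays, with replicate 3 the closest, and the call did not hold without AICAR 2h replicate 2 or AICAR 4h replicate 2. The host of miR-22, Mir22hg, picked out after its value was seen, had signals of 9.01, 8.88 and 9.04 at 2 h and 8.39, 8.17 and 8.55 at 4 h, a fall of 0.61 ± 0.12 (SE; adjusted p = 0.0128), a call that AICAR 2h replicate 1 and AICAR 4h replicate 2 were each needed for. The arrays measure the host transcripts and not the mature microRNAs. The mature sequences that these hosts carry are shown (RefSeq, GRCm38.p6, chromosome 14 for Mir17hg and chromosome 11 for Mir22hg) because their seeds, bases 2 to 8 in capitals, group them by the targets they could pair with.
miR-17-5p: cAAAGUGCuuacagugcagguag
miR-20a-5p: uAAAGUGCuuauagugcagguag
miR-18a-5p: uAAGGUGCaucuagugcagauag
miR-19a-3p: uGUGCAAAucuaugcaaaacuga
miR-19b-3p: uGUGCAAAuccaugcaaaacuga
miR-92a-3p: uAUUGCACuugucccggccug
miR-22-3p: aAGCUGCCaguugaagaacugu
Both miR-17-5p and miR-20a-5p share the seed AAAGUGC, miR-19a-3p and miR-19b-3p share GUGCAAA, and the others have seeds of their own. Mir17hg stood at 7.98 ± 0.31 (SD, n = 3) in untreated cells and went down to 6.70 ± 0.21 at 12 h and 6.36 ± 0.08 at 24 h, whereas Mir22hg had its highest group mean, 8.98 ± 0.09, at 2 h.

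Several of the largest rises lay outside the gene lists. Stx3, a syntaxin of membrane fusion, had signals of 8.58, 8.59 and 8.65 at 2 h and 9.17, 9.58 and 9.55 at 4 h, a rise of 0.83 ± 0.10 (SE; adjusted p = 0.000443). Lonrf1, a RING finger protein, rose by 0.82 ± 0.10 and Aunip, a partner of the mitotic kinase Aurora A, by 0.69 ± 0.08, both with an adjusted p of 0.000443. Their arrays were close together: Lonrf1 went from 7.46, 7.48 and 7.42 to 8.27, 8.21 and 8.35, and Aunip from 8.06, 8.20 and 8.16 to 8.86, 8.80 and 8.84. Purg, a nucleic acid binding protein, rose by 0.94 ± 0.16, with 2 h arrays between 6.53 and 6.56 and 4 h arrays between 7.29 and 7.68. Zbtb34, a zinc finger protein with a BTB domain, rose by 0.87 ± 0.12 from 6.66, 6.60 and 6.84 to 7.57, 7.54 and 7.60. All 5 passed with each array left out. Zbed4 rose by 0.87 ± 0.18 with 4 h arrays at 7.82, 8.95 and 8.68, and its call needed AICAR 2h replicate 2, AICAR 4h replicate 2 and AICAR 4h replicate 3. Csrnp2, a nuclear factor, rose by 0.69 ± 0.13 but not without AICAR 4h replicate 2, and Pwwp2a, a reader of chromatin, rose by 0.76 ± 0.12, though the mean of its probe sets did not pass (0.45, adjusted p = 0.106). The 4 h means of Zbed4, Csrnp2 and Pwwp2a (8.49, 8.19 and 7.85) were near those of untreated cells (8.34, 8.11 and 7.91). Those of the 5 genes named before them were above the untreated level.

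Genes that handle RNA changed in both directions, as did all genes tested (1.40% higher and 1.44% lower). Of 26 tested mRNA decay factors 2 rose and 0 fell, and these were the paralogs Tob1 (0.57 ± 0.09, SE; adjusted p = 0.00318) and Tob2 (0.50 ± 0.09), adaptors of the CCR4-NOT deadenylase. Tob1 had signals of 10.12, 10.08 and 10.03 at 2 h and 10.49, 10.77 and 10.68 at 4 h, and both genes passed with each array left out, although the other 4 probe sets of Tob2 differed by 0.05 to 0.62 and the mean of all 5 did not pass (0.33, adjusted p = 0.138). Of 31 FET and RBM RNA-binding genes 2 rose, Rbm4 (0.63 ± 0.12) and Rbm15 (0.47 ± 0.10), a member of the complex that writes m6A marks. Rbm4, a splicing regulator, had signals of 8.94, 8.92 and 8.66 at 2 h and 9.63, 9.37 and 9.42 at 4 h. Rbm15 lost its call on leaving out AICAR 2h replicate 1, AICAR 2h replicate 2 or AICAR 4h replicate 3. Taf15 (0.41, adjusted p = 0.526) and the cold-inducible Rbm3 (0.75, adjusted p = 0.133) did not pass.

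Of 22 tested SR proteins and CLK kinases, which act in splice site choice, 2 fell and 1 rose, beside 1.44% and 1.40% of all genes tested. Srsf10, a splicing repressor, had signals of 10.23, 10.35 and 10.37 at 2 h and 9.74, 9.84 and 9.72 at 4 h, a fall of 0.55 ± 0.08 (SE; adjusted p = 0.00318). Its other 3 probe sets differed by -0.17 to -0.50. Clk1, a kinase of SR proteins, fell by 0.47 ± 0.09 from 10.41 at 2 h, its highest group mean, to 9.95, its level at 0 h being 9.94 ± 0.12 (SD, n = 3). Luc7l3, a U1-associated protein, rose by 0.49 ± 0.10. The call of Clk1 needed AICAR 2h replicate 2 and AICAR 4h replicate 2, and that of Luc7l3 needed AICAR 2h replicate 1 and AICAR 4h replicates 2 and 3. The O-GlcNAc hydrolase gene Oga rose by 0.57 ± 0.12 on 1 of 4 probe sets, and the mean of all 4 did not pass (0.27, adjusted p = 0.204). Among 22 genes of ribosome biogenesis 1 fell, Polr1b, a subunit of RNA polymerase I (-0.48 ± 0.08). None of 19 hnRNP genes, 9 snoRNA host genes and 26 genes of transcription elongation passed.

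Of 18 tested genes of cholesterol synthesis and uptake 3 rose and 0 fell, beside 1.40% and 1.44% of all genes tested. The list median, 0.20, was the highest of the lists. It was 0.21 with quantile normalization, which called 7 of the 18, and 0.17 with median centring, which called 0. The 3 were enzymes of the pathway after HMG-CoA: Fdft1, the squalene synthase, rose by 0.36 ± 0.07 (SE; adjusted p = 0.0130), Sqle, the squalene epoxidase, by 0.33 ± 0.08 and Cyp51, a lanosterol demethylase, by 0.38 ± 0.09. Fdft1 had signals of 10.00, 9.92 and 10.08 at 2 h and 10.32, 10.43 and 10.34 at 4 h. These calls were marginal, and with 1 array left out 0 to 2 of the 3 passed. Mvd (0.32), Lss (0.30), Msmo1 (0.29) and Fdps (0.24) did not pass, and 15 of the 18 values were above 0, against 6501 of 12944 for all genes. The group means of Sqle rose from 10.93 ± 0.06 (SD, n = 3) to 11.26 ± 0.06 in this step and stood at 10.39 ± 0.08 at 24 h.

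**Figure D4:**
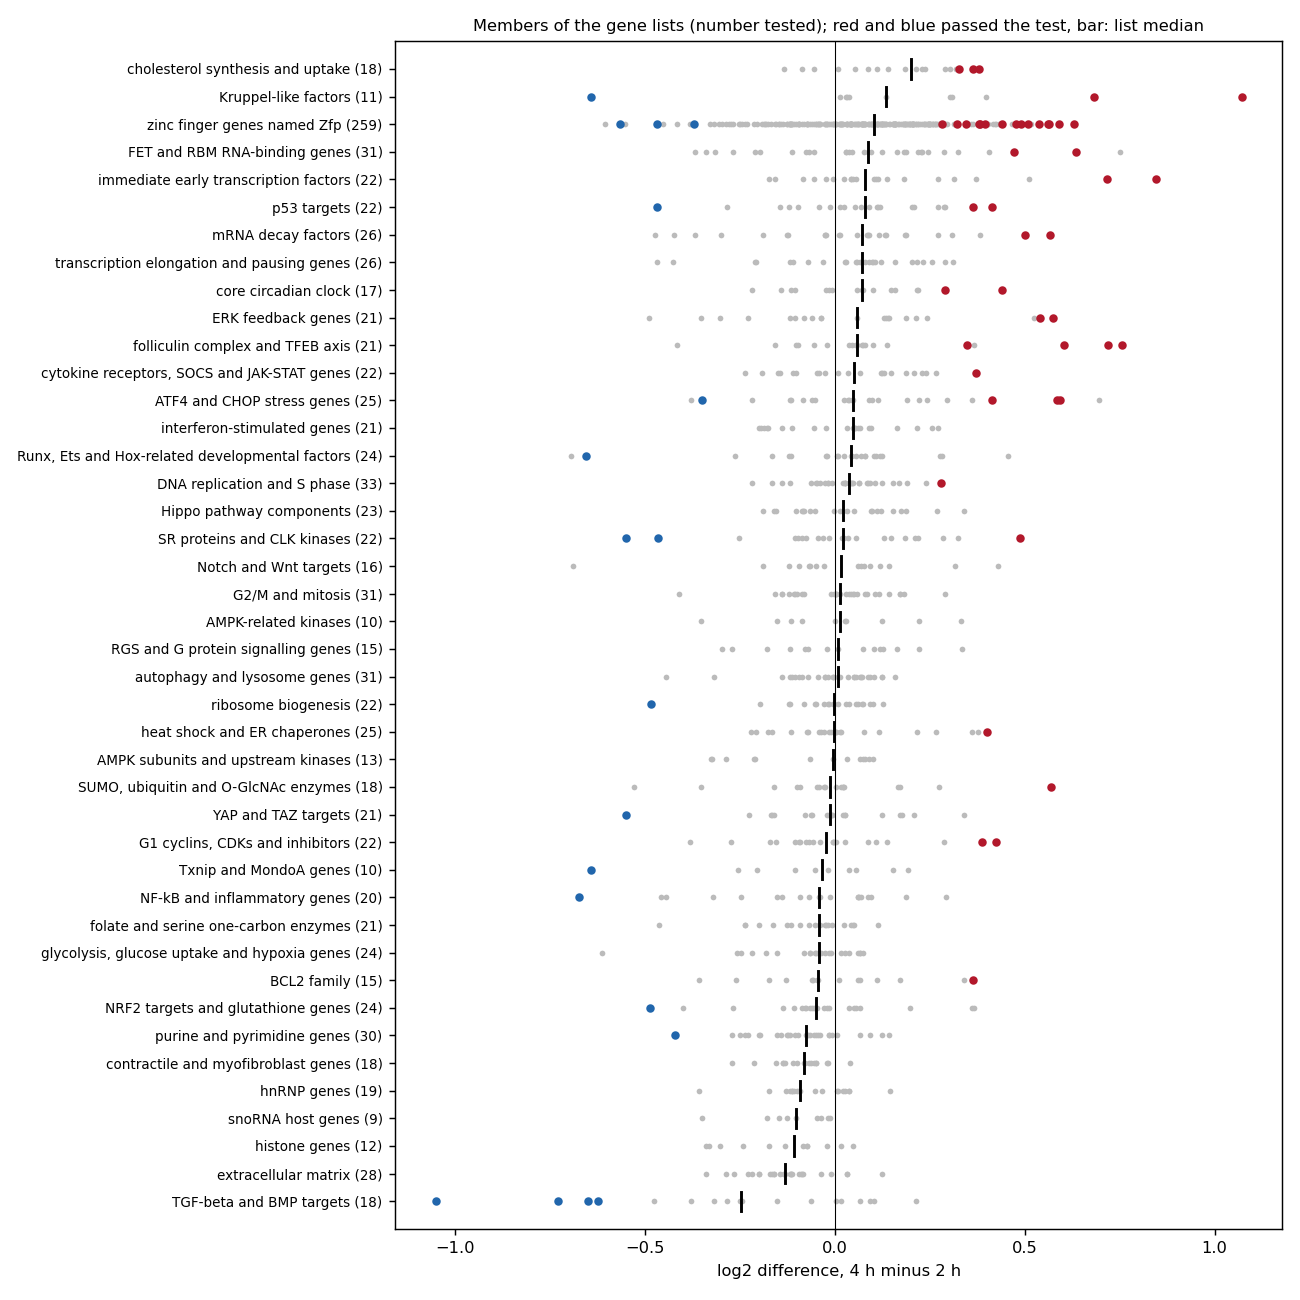
Log2 difference (4 h minus 2 h, horizontal axis) of the tested members of each gene list, with the number tested in brackets; red members rose, blue members fell, grey members did not pass, and the black bar is the list median. Lists of cell type markers are not drawn; of the lists drawn, TGF-β and BMP targets have the lowest median (-0.25) and cholesterol genes the highest (0.20), and most members of every list are grey. The Krüppel-like row holds the 11 Klf genes alone.

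Of 25 tested ATF4 and CHOP stress genes 3 rose and 1 fell, and of 22 p53 targets 2 rose and 1 fell, with Sesn2 in both lists, beside 2.84% called among all genes tested. Cebpg, a partner of ATF4, rose by 0.59 ± 0.09, Ddit4, an inhibitor of mTORC1, by 0.59 ± 0.13 and Sesn2, a leucine-sensing protein, by 0.41 ± 0.09. Slc7a1, a transporter of cationic amino acids, fell by 0.35 ± 0.08, but another of its probe sets differed by 0.30. Cebpg passed with each array left out and had signals of 8.89, 8.95 and 8.94 at 2 h and 9.24, 9.74 and 9.58 at 4 h, but the mean of its 3 probe sets did not pass (0.42, adjusted p = 0.114). Ddit4, Sesn2 and Slc7a1 did not pass in at least 3 of the 6 fits that leave out 1 array. The p53 target that fell was Rrm2b (-0.47, adjusted p = 0.0497). The 2 that rose, Sesn2 and Pmaip1 (0.36, adjusted p = 0.0484), did not pass without AICAR 2h replicate 1, and neither did Rrm2b. Herpud1, which acts in degradation at the endoplasmic reticulum, was the 1 of 25 chaperone genes to rise (0.40), and Srxn1, which repairs peroxiredoxins, the 1 of 24 NRF2 genes to fall (-0.49). Srxn1 did not pass in 3 of those 6 fits.

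Calls among cell cycle genes were few, beside 2.84% called among all genes tested. E2f7 and E2f8, repressors of E2F targets, rose by 0.42 and 0.39 among 22 genes of G1 control. Cdc6, a licensing factor, rose by 0.28 among 33 genes of DNA replication. None of 31 genes of G2 and mitosis and 12 histone genes passed, although the histone gene H1f2 did with the mean of its probe sets (-0.52, adjusted p = 0.0356). The clock genes Bhlhe40 (0.44) and Csnk1d (0.29) rose among 17. E2f7, E2f8, Cdc6, Bhlhe40, Csnk1d, Herpud1 and Pmaip1 each did not pass in at least 4 of the 6 fits that leave out 1 array. Dctd, a deaminase of pyrimidine synthesis, fell by 0.42 ± 0.08 with 8.18 on each 2 h array and 7.71, 7.77 and 7.79 at 4 h, and was the 1 of 30 purine and pyrimidine genes to change. Single falls were seen in Nfkbie, an inhibitor of NF-kB (-0.67, with AICAR 4h replicate 1 at 7.02 and the others at 7.97 and 7.91), in the developmental factor Sox11 (-0.66) and in Dlc1 (-0.55), a tumour suppressor whose 4 h arrays at 4.46 and 4.58 lay below 5.08. Socs7 rose by 0.37. Nfkbie, Sox11, Dlc1 and Socs7 likewise lost their calls in at least 4 of those 6 fits.

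Of 47 gene lists, 25 held at least 1 changed gene and 22 held none; 321 of the 368 changed genes were in no list. Lists with 0 calls included 23 Hippo pathway components, where Lats1 differed by 0.27 (adjusted p = 0.0555) and Lats2 by 0.34 (adjusted p = 0.244), 24 genes of glycolysis and hypoxia, 21 interferon-stimulated genes, 21 one-carbon enzymes, 13 AMPK subunits and upstream kinases and 10 AMPK-related kinases. With the mean of its probe sets Lats1 passed (0.42, adjusted p = 0.0462). Quantile normalization called 2 Hippo components higher and 2 one-carbon enzymes lower. Txnip, a repressor of glucose uptake, differed by -0.26 (adjusted p = 0.368). Extracellular matrix genes had 0 calls of 28 but a median of -0.13, with 3 values above 0, and contractile genes 0 of 18 with a median of -0.08 and 1 value above 0. The genes named Zfp, a family of zinc finger proteins looked at after the data were seen, gave 15 rises and 3 falls among 259. Among all genes tested 1.40% were higher and 1.44% lower, and the median of the Zfp genes was 0.10. Their largest rise was that of Zfp770 (0.63, from 8.07, 8.20 and 8.40 to 8.63, 8.94 and 8.99). Leaving out 1 array moved the rises in this family to between 4 and 23.

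The values of the changed genes were also read in the steps of the time course that share no array with this one, although all steps use the same pooled estimate of spread. From 0 h to 1 h, 1 gene rose (0.00773% of those tested) and 61 fell (0.471%). Of the 181 genes that rose from 2 h to 4 h, 13 were among those 61, which is 7.18% of the former and 21.3% of the latter. They included Ddit4, which fell by 1.02 ± 0.13 (SE) in the first hour, Klf2 (-0.93), Egr1 (-0.86), Jun (-0.79), Errfi1 (-0.77), Zbtb34 (-0.63) and Tob2 (-0.50). These genes thus fell in the first hour and rose between 2 h and 4 h. Of the 187 genes that fell from 2 h to 4 h, 1 was among those 61, Pim3, and the 1 gene that rose in the first hour, Disp1, was the other. The number of shared genes was 13 here and ranged from 5 to 21 when 1 array of the 2 h or 4 h groups was left out. The 61 falls of the first hour became 18 on leaving out AICAR 1h replicate 3, 30 on leaving out AICAR 1h replicate 2 and 31 on leaving out control 0h replicate 2.

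From 12 h to 24 h, 1626 genes (12.6%) rose and 945 (7.30%) fell. Of the 181 genes that rose from 2 h to 4 h, 69 (38.1%) rose again and 11 (6.08%) fell. The 69 included Egr1 (2.06), Oga (1.64), Fnip1 (0.63), Flcn (0.63) and Stx3 (0.40), and the 11 included Klf2 (-0.95), Klf4 (-0.70), Fdft1 (-0.56), Sqle (-0.51) and Cyp51 (-0.33). Of the 187 genes that fell, 54 (28.9%) fell again, among them Id2, Fst (-0.81), Nrg1 (-0.58) and Smad6 (-0.51), and 19 (10.2%) rose, among them Clk1 (0.51) and Klf10 (0.36). Leaving out 1 array of the 2 h or 4 h groups moved the 69 to between 25 and 101 and the 54 to between 14 and 64. The 1626 became 1045 without AICAR 12h replicate 3 and 1017 without AICAR 24h replicate 2. From 8 h to 12 h, where 2 arrays stood for 8 h, 63 genes (0.487%) rose and 93 (0.718%) fell, and those counts ranged from 3 to 96 and from 6 to 76 with 1 array left out. Of the genes that rose from 2 h to 4 h, 0 rose and 6 fell in that step, including Rbm4 (-0.92) and Oga (-0.60), and of those that fell 7 rose and 6 fell, including Fst (-1.18) and Tgif1 (-0.77).

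Of the changed genes, 186 had other tested probe sets, 288 in all. Of these, 233 differed in the same direction as the one that stood for the gene, 20 passed in the same direction and 0 in the opposite one.

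**Figure D5:**
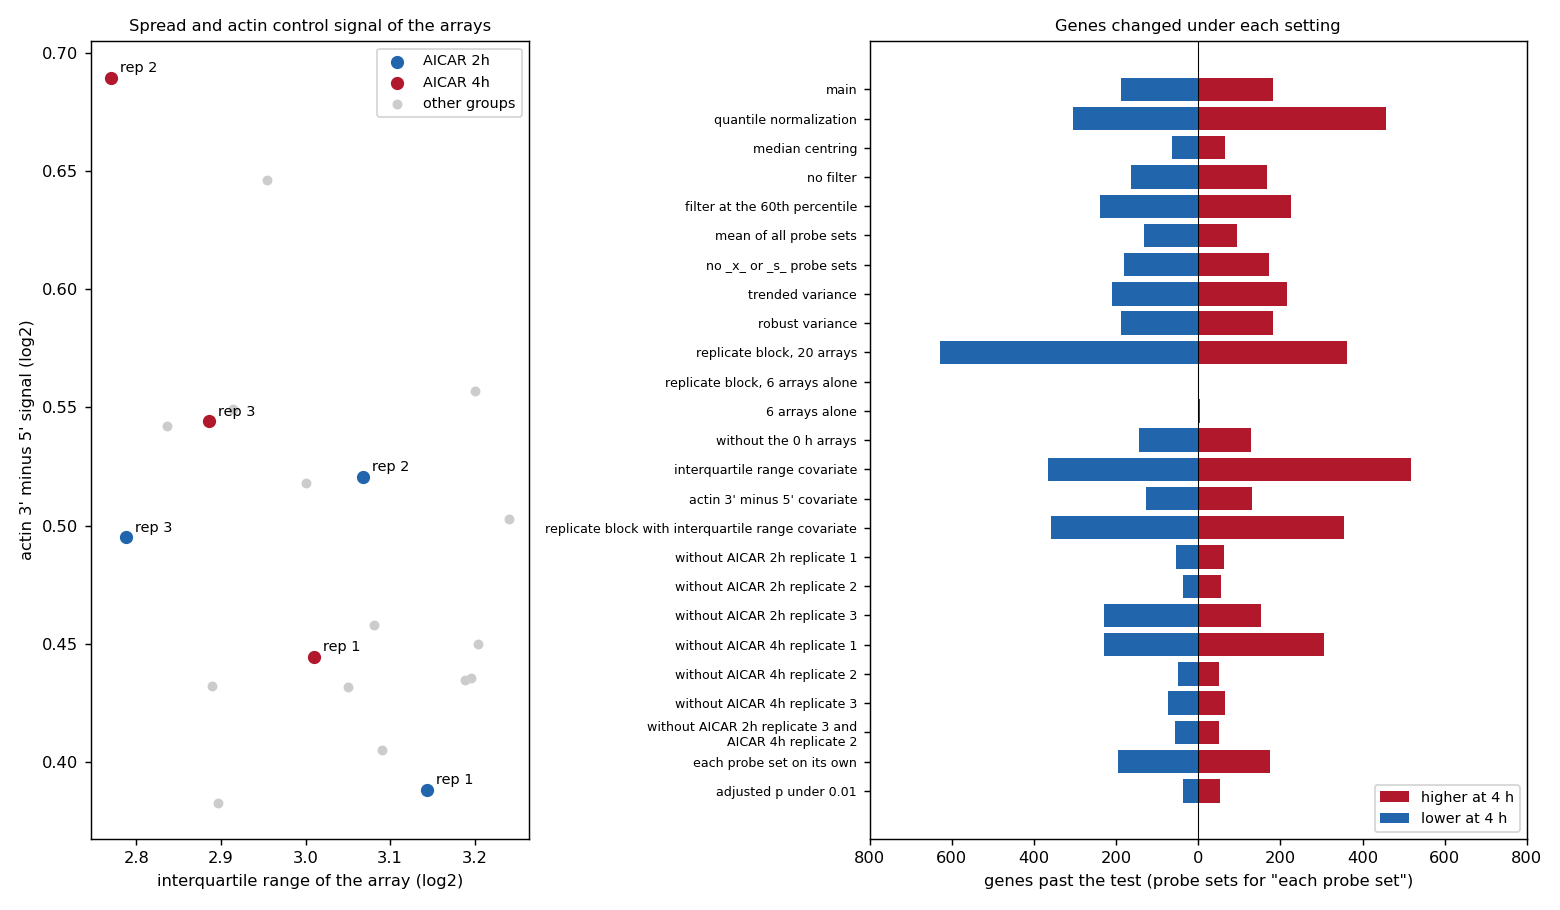
Left, interquartile range (horizontal axis, log2) and actin 3′ minus 5′ signal (vertical axis, log2) of each array, with 2 h in blue, 4 h in red and the other groups in grey. Right, number of genes higher (red) and lower (blue) at 4 h under each setting; array weights, with 5738 calls, are left out. AICAR 4h replicate 2 has the highest actin value (0.689), and the calls range from 0 to 990 around the 368 reported.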

How the data were processed

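The 20 arrays came as 1 table of 45141 probe sets, deposited by the authors as log2 signal. The scale was read from the values, whose highest, 13.5, is too large for natural logs of 16-bit intensities. The sources used here do not say how the authors corrected, summarised or normalized them. Medians of the arrays spanned 0.159 (renormalizing was set to start at 0.2), so values were used as deposited. The 104 array controls were left out.

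The platform annotation gave 28898 probe sets with 1 symbol, 551 with several and 15588 unnamed; symbols of 28689 were updated by gene identifier (GRCm38.p6 table). A gene was read from its probe set of highest mean signal, and 4153 genes that stayed at or under 4.81 in every group mean (the 40th percentile of the table) were dropped. The number of arrays limits the precision.

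limma 3.58.1 (R 4.3.3) fitted lmFit and eBayes to 7 groups over 20 arrays, with the difference 4 h minus 2 h, two-sided, Benjamini-Hochberg over 12944 genes and a threshold of 0.05. Errors of differences are SE of that fit. On simulated data for this step, 98 of 100 genes changed by 1 on the log2 scale and 65 of 100 changed by 0.5 were recovered. Of 174 genes called, 11 were unchanged. The simulated noise was independent for each gene and array. It left out deviations that many genes of an array share, so these rates may not hold for the real arrays. Lists were described by counts and medians and not tested; 1 list was narrowed to its 11 Krüppel-like factors after its values were seen, and counts over its other members are not reported here.

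The genes named are the 15 largest rises and 15 largest falls that passed with no overlap between arrays, up to 4 changed members of each list (else the 2 with the largest t), Prkaa1, Prkaa2, Lats1, Lats2, Txnip, Taf15 and Ppp1r10, from which the text takes a selection. Other list members named beside them as values were picked with those values in view. The comparison and the lists were chosen with earlier results of these data known. Alternatives covered normalization, filter, probe sets, variance, weights of arrays, a replicate block, the arrays in the fit, covariates and leaving out arrays. The block with the interquartile range, and the fit without AICAR 2h replicate 3 and AICAR 4h replicate 2, were added after seeing the data. Promoters and microRNAs are from RefSeq tables of GRCm38.p6; Python 3.11.15 and matplotlib 3.10.9 drew the figures.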

Additional observations from a re-analysis of the deposited data

How the results depend on the processing

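The counts depended on the processing more than the directions did; causes were not tested. Against 368 changed genes (181 higher, 187 lower, 69 at least 1.5-fold), quantile normalization gave 762 (456 and 306), median centring 129 (65 and 64; 44 at least 1.5-fold), the mean of all probe sets 226 (94 higher; 37 at least 1.5-fold), the interquartile range as a covariate 885 (518 and 367) and an adjusted p under 0.01 gave 89 (52 and 37; 38 at least 1.5-fold). Array weights, whose fit did not converge, gave 5738 (2673 and 3065; 254 at least 1.5-fold). The 6 arrays alone gave 5 (4 and 1; 5 at least 1.5-fold). With 1 array left out, changed genes ranged from 91 to 534, rises from 50 to 305, falls from 36 to 230 and changes of at least 1.5-fold from 32 to 118. Filtering at the 60th percentile or not at all, no _x_ or _s_ probe sets, trended or robust variance, a fit without the 0 h arrays and the actin covariate kept the count within 1.5 times.

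Deviations of arrays with the same replicate number correlated at 0.61, -0.28 and 0.20 between 2 h and 4 h. AICAR 4h replicate 2 correlated best with AICAR 2h replicate 3 (0.54), and these were the narrowest arrays of their groups. Array spread may enter these deviations, so they do not settle if replicate numbers pair the samples. Elsewhere in the time course, in 6 of the 15 pairs of groups with 3 arrays each, none of them with the 4 h group, all same-number correlations were over 0.1. The replicate block gave 990 genes (362 and 628) over 20 arrays, 715 (356 and 359) when joined to the covariate for array spread, and 0 (0 and 0; 0 at least 1.5-fold) in the 6 arrays alone.

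Of 71 changed genes under the naming rule, 44 kept their call with median centring, 47 with the mean of all probe sets, 56 with the actin covariate and 34 to 63 with 1 array left out. Slc7a1 alone reversed, to 0.0439 with the mean of its probe sets. With 3 arrays a group, changes under 0.5 on the log2 scale can be missed, and genes near 5.08 have little signal over background.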
